A study of Mus musculus with 66 samples.

Results

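Genes of the Notch pathway were followed in mouse small-intestinal organoids, 9 in all: the receptors Notch1 and Notch2, the ligands Jag1 and Dll1, the proteases Adam10 and Adam17, the gamma-secretase subunit Ncstn, the DNA-binding factor Rbpj and the target gene Hes1. They were chosen by name, as the rows of the RNA table that carry one of these 9 gene symbols. Of the 9 genes, 7 had such a row, each with 1 transcript, among 9481 transcripts in all. RNA of Notch1 and Hes1 was not analysed here, and for these 2 genes only the chromatin is described.

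All organoids carried the Lgr5 GFPDTR/+ allele, a reporter and toxin receptor placed at the endogenous Lgr5 gene of 1 allele. ENR organoids grew in the regular medium with EGF at 50 ng/ml, 10% Noggin and 5% R-Spondin-1. CV organoids, the stem cell-enriched culture, received in addition 3 µM CHIR99021, which blocks the Gsk3 kinases and so raises Wnt signalling, and 1 mM valproic acid, which inhibits histone deacetylases, for 5 days. EN organoids, the stem cell-depleted culture, were kept for 2.5 days without R-Spondin-1. Valproic acid was part of the CV medium because it acts on Notch signalling, so the pathway's own genes are of interest in this comparison. RNA was sequenced in 4 libraries per culture, open chromatin (ATAC) in 4, and the histone marks H3K27ac, H3K4me3 and H3K27me3 in 3 libraries per culture and mark. Hnf4g binding was measured in 1 library per culture. The labels do not tie a library to a separate culture or mouse, so the p-values below measure the spread between these libraries, which may be technical.

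Notch is a receptor that is cut when it meets a ligand on a neighbouring cell. A metalloprotease of the Adam family first removes the outer part, gamma-secretase then releases the intracellular part, and that fragment joins Rbpj in the nucleus and switches on genes such as Hes1. In the intestinal crypt, cells with active Notch stay stem cells or become absorptive enterocytes, while cells that express Dll1 and escape Notch turn on Atoh1 and become secretory cells.

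The 12 RNA libraries held 5630977 to 8859757 estimated counts without the added spike-in transcripts, which made up 0.837% to 1.36% of all counts. Values are given as counts per 1000000 (CPM) after TMM scaling between libraries, with the mean ± SD of 4 libraries. Lgr5, the stem cell receptor, stood at 90.1 ± 3.62 CPM in CV and 129 ± 4.88 CPM in ENR, against 1.81 ± 0.778 CPM in EN. Alpi, an enterocyte alkaline phosphatase, stood at 157 ± 10.5, 172 ± 11.7 and 635 ± 31.0 CPM in the same order. The summed level of 8 stem cell markers with a row, of 10 listed, was 1050 to 1076 CPM in the CV libraries and 1979 to 2135 CPM in the ENR libraries. EN libraries had 106 to 119 CPM, with Tnfrsf19 at 0. The stem cell marker Olfm4 alone gave 1229 ± 61.7 CPM of the ENR sum and 10.9 ± 6.42 CPM of the CV sum. Without Olfm4 the mean sum would be higher in CV than in ENR. The 10 enterocyte markers summed to 7664 to 8070, 8978 to 10182 and 57927 to 60486 CPM. The 6 goblet cell markers with a row summed to 862 to 955, 1958 to 2122 and 10263 to 11515 CPM, the 5 enteroendocrine markers to 25.1 to 38.1, 534 to 554 and 1460 to 1928 CPM, and the 3 tuft cell markers to 1.35 to 3.86, 34.8 to 38.9 and 78.0 to 109 CPM. The 6 proliferation genes summed to 1192 to 1228, 1700 to 1797 and 162 to 172 CPM, and the 7 Paneth cell markers to 3832 to 4321, 7253 to 7676 and 2158 to 2444 CPM. Immune markers reached at most 3.89 CPM and mesenchymal markers at most 26.3 CPM in summed level, with Acta2 and Des at 0 in ENR, and no endothelial marker had a row. A sum is set mostly by its most abundant genes, and the goblet, enteroendocrine and tuft cell sums were not split by gene. They need not hold for each marker. The paper reports that Muc2, Reg4 and Dclk1, which are on these lists, were not enriched in EN over ENR. In bulk RNA fewer cells of a type and less RNA per cell cannot be told apart, and the part of these shifts in the values below was not tested.

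Between CV and EN, Notch2 fell 7.66-fold while Ncstn rose 2.03-fold and Dll1 rose 1.65-fold. Adam17 fell 1.66-fold and Adam10 fell 1.17-fold, and neither Jag1 nor Rbpj passed the test. Thus 5 of the 7 members changed (edgeR quasi-likelihood test on all 12 libraries, Benjamini-Hochberg adjusted p under 0.01 over 9288 transcripts), 2 upward and 3 downward. This share stands against a background in which 76.4% of all transcripts changed between the same cultures, 35.2% upward and 41.2% downward. The median log2 fold change was -0.10 over the members and -0.08 over all transcripts. Between ENR and EN, 6 of 7 members changed, 2 upward and 4 downward, where 72.7% of all transcripts changed, 35.5% upward and 37.2% downward. This split was 0 upward and 5 downward without TMM or with spike-in scaling, and 5 upward and 1 downward in mRNA copies. Between ENR and CV, 4 of 7 changed, with 1 higher and 3 lower in CV, where 60.0% of all transcripts changed, 30.2% higher and 29.8% lower. The 3 comparisons share libraries, so their values are set side by side and not counted as separate evidence.

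Notch2 was the only member with a receptor role that had an RNA value, and it lost most of its transcript in EN. In the 4 CV libraries it measured 36.5, 28.6, 28.2 and 30.1 CPM, in ENR 27.5, 30.8, 28.1 and 26.4 CPM, and in EN 4.96, 4.71, 3.75 and 2.74 CPM. Every EN library lay below every CV and ENR library, and the values of CV and ENR overlapped. The fitted log2 change was -2.94 ± 0.15 (SE) from CV to EN (adjusted p = 3.79e-11, edgeR) and -2.80 ± 0.15 from ENR to EN (adjusted p = 8.97e-11, edgeR), with 0.13 ± 0.11 between ENR and CV (adjusted p = 0.309, edgeR). The EN values rested on 19 to 37 counts per library against 185 to 271 in the other cultures. On the spike-in scale of the deposited table, Notch2 stood at 2.40 ± 0.842 mRNA copies per cell in CV and 1.60 ± 0.411 in ENR, against 0.425 ± 0.112 in EN. The direction was the same under each of the 6 scalings tried, and each single library left out kept the call.

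The ligands moved in different ways. Dll1, the Delta ligand shown by early secretory cells, measured 25.9, 26.4, 24.9 and 24.2 CPM in CV, 50.2, 45.2, 51.3 and 54.1 in ENR, and 45.3, 35.5, 43.2 and 42.2 in EN. CV was thus the low culture, below every library of the others, while ENR and EN overlapped at a single pair of libraries. Dll1 was 1.98-fold lower in CV than in ENR (log2 -0.99 ± 0.08, adjusted p = 2.34e-08, edgeR) and higher in EN than in CV by 0.72 ± 0.08 on the log2 scale (adjusted p = 5.07e-07, edgeR). The drop from ENR to EN, -0.27 ± 0.07 (adjusted p = 0.00415, edgeR), no longer passed without ENR replicate 1 (adjusted p = 0.0103, edgeR), ENR replicate 3 (0.0115), ENR replicate 4 (0.0174) or EN replicate 2 (0.0125), nor by DESeq2 (adjusted p = 0.0176), and its sign turned to 0.74 in mRNA copies per cell. The rise from CV to EN was 0.32 with spike-in scaling and then did not pass (adjusted p = 0.130, edgeR). In the same libraries the summed goblet, enteroendocrine and tuft cell lists were also lowest in CV, while the summed Paneth cell list was lowest in EN. Their part in the Dll1 values was not tested.

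Jag1, the Jagged ligand, measured 25.3, 22.4, 25.7 and 20.7 CPM in CV, 18.1, 16.5, 22.2 and 19.8 in ENR, and 29.8, 33.0, 21.9 and 33.5 in EN. Its EN libraries spread most, with replicate 3 at the level of CV. Jag1 was 1.54-fold higher in EN than in ENR (log2 0.63 ± 0.13, adjusted p = 4.18e-04, edgeR), although EN replicate 3 lay within the ENR range. This call was lost without TMM (0.26, adjusted p = 0.0764, edgeR) and with spike-in scaling (0.12, adjusted p = 0.606, edgeR). The rise from CV to EN, 0.33 ± 0.13, did not pass (adjusted p = 0.0259, edgeR) but passed without EN replicate 3 (adjusted p = 0.00130, edgeR). It also passed by DESeq2 (0.39, adjusted p = 0.00725), but the value was -0.08 with spike-in scaling and -0.09 without TMM, so its sign depends on the scaling. Between ENR and CV the difference was 0.30 ± 0.13 (adjusted p = 0.0546, edgeR).

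The 2 ectodomain proteases were highest in CV. Adam17, the tumour necrosis factor converting enzyme, measured 87.6, 86.0, 88.5 and 85.2 CPM in CV, 60.7, 60.5, 68.2 and 58.1 in ENR, and 54.7, 49.9, 49.2 and 54.3 in EN. The 3 cultures did not overlap. Between CV and EN, Adam17 fell by 0.73 ± 0.06 in log2 units (adjusted p = 6.23e-09, edgeR) and it fell by 0.24 ± 0.06 from ENR to EN (adjusted p = 0.00120, edgeR). It was 0.49 ± 0.05 higher in CV than in ENR (adjusted p = 1.08e-06, edgeR), which did not pass with spike-in scaling (0.39, adjusted p = 0.0844, edgeR) or in mRNA copies (adjusted p = 0.0190, limma). Adam10, the main protease for ligand-bound Notch, changed far less. It measured 92.4, 87.3, 90.1 and 79.9 CPM in CV, 78.2, 85.2, 76.8 and 77.0 in ENR, and 76.4, 77.9, 73.0 and 71.5 in EN. The difference between CV and EN was -0.23 ± 0.05 (log2, adjusted p = 0.00134, edgeR, but 0.0214 by DESeq2), while ENR overlapped both other cultures and passed against neither (adjusted p = 0.167 for EN and 0.0300 for CV, edgeR). Without CV replicate 4 the difference between CV and ENR passed (adjusted p = 0.00568, edgeR), as it did without TMM (adjusted p = 0.00369, edgeR) and in TPM (adjusted p = 4.62e-04, limma). From ENR to EN, Adam10 was lower and passed without TMM (-0.45, adjusted p = 1.69e-06, edgeR), with spike-in scaling (-0.61, adjusted p = 0.00236, edgeR) and in TPM (adjusted p = 0.00161, limma). On the scale of mRNA copies per cell the sign of both proteases between CV and EN turned, to 0.55 for Adam10 and 0.0079 for Adam17, while the median of all transcripts was 0.62. From ENR to EN the sign turned on that scale too, to 0.94 for Adam10 and 0.77 for Adam17.

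Ncstn, which encodes nicastrin, the subunit of gamma-secretase that holds the cut receptor, rose in order from CV through ENR to EN. Its libraries measured 28.4, 31.9, 30.8 and 23.5 CPM in CV, 41.6, 37.1, 35.8 and 39.0 in ENR, and 58.6, 54.4, 62.3 and 57.3 in EN. No library of 1 culture reached into the range of the next. The log2 differences were 1.02 ± 0.08 from CV to EN (adjusted p = 1.77e-08, edgeR), 0.60 ± 0.08 from ENR to EN (adjusted p = 8.03e-06, edgeR) and -0.43 ± 0.09 for CV against ENR (adjusted p = 4.51e-04, edgeR). In mRNA copies per cell Ncstn stood at 10.1 ± 2.64, 11.4 ± 2.99 and 38.0 ± 6.30 in CV, ENR and EN. From ENR to EN its gain fell to 0.23 without TMM (adjusted p = 0.0168, edgeR) and to 0.09 with spike-in scaling (adjusted p = 0.665, edgeR), and neither passed. CV against ENR was -0.17 in mRNA copies (adjusted p = 0.651, limma).

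Rbpj, the factor through which cleaved Notch reaches DNA, was highest in ENR and lower in both other cultures. It measured 30.5, 32.0, 31.7 and 31.2 CPM in CV, 41.4, 38.9, 44.3 and 42.5 in ENR, and 27.9, 29.5, 31.4 and 28.4 in EN. Every ENR library lay above all libraries of CV and EN, which overlapped. Relative to ENR it was 1.33-fold lower in CV (log2 -0.42 ± 0.06, adjusted p = 1.59e-05, edgeR) and 1.43-fold lower in EN (log2 -0.52 ± 0.06, adjusted p = 1.33e-06, edgeR). Between CV and EN it differed by -0.10 ± 0.06 (adjusted p = 0.156, edgeR). In mRNA copies per cell EN was the highest culture, at 7.63 ± 0.729 copies against 5.28 ± 1.63 in ENR and 4.81 ± 0.957 in CV, so the order of the cultures depends on the scale. The log2 change from ENR to EN was then 0.49, that from CV to EN 0.58, and that of CV against ENR -0.09 (adjusted p = 0.792, limma). CV against ENR also did not pass with spike-in scaling (adjusted p = 0.0214, edgeR). Without TMM and in TPM, Rbpj was lower in EN than in CV and passed (log2 -0.53, adjusted p = 9.79e-07, edgeR, and log2 -0.37, adjusted p = 4.53e-05, limma).

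**Figure D1:**
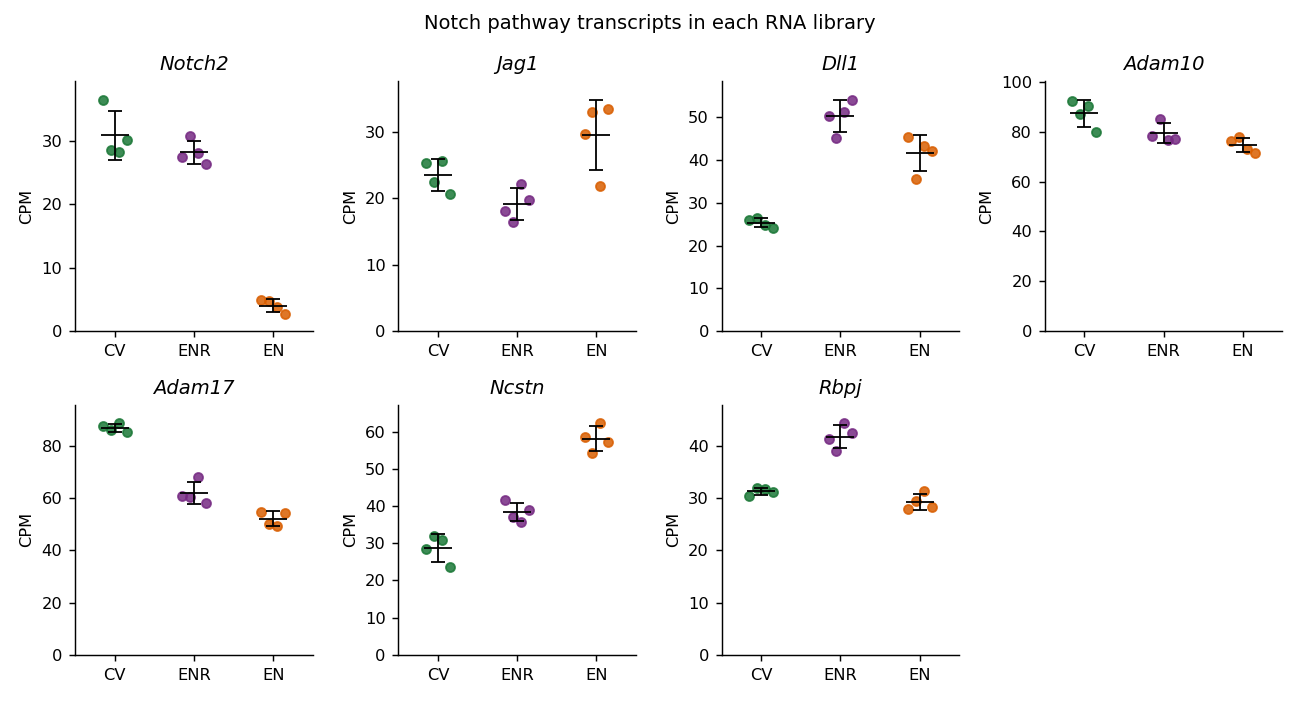
Level of each of the 7 transcripts in CPM (y axis, from 0) in the 4 libraries of CV, ENR and EN (points), with the mean (bar) and the SD of the 4 libraries (error bars). The EN libraries of Notch2 sit between 2.74 and 4.96 CPM, below all other libraries, while Ncstn climbs from CV to EN and Rbpj peaks in ENR.

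**Figure D2:**
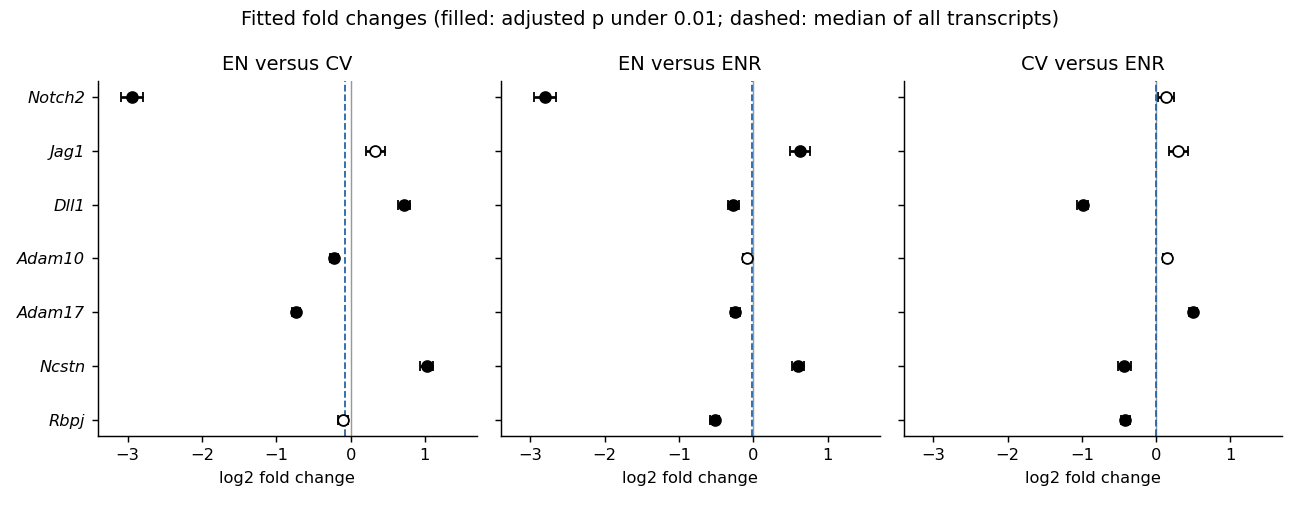
Fitted log2 fold change of each transcript (x axis) with its standard error (bars) in the 3 comparisons. Filled points passed adjusted p under 0.01, and the dashed line marks the median of all transcripts tested, -0.08, -0.01 and -0.01 from left to right.

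Levels were compared between genes per length, in transcripts per 1000000 (TPM). In CV the proteases led, with Adam17 at 32.0 ± 0.419 TPM and Adam10 at 30.0 ± 1.72, and their libraries overlapped. Ncstn at 17.9 ± 2.20, Dll1 at 12.2 ± 0.427, Rbpj at 9.11 ± 0.160, Jag1 at 6.97 ± 0.672 and Notch2 at 4.70 ± 0.606 TPM followed, none overlapping with the next. In EN the order had changed, with Ncstn first at 29.2 ± 1.73 TPM, then Adam10 at 20.6 ± 0.941. Dll1 at 16.1 ± 1.79 and Adam17 at 15.4 ± 1.03 TPM overlapped, as did Jag1 at 7.03 ± 1.28 and Rbpj at 6.84 ± 0.302. Notch2 came last at 0.495 ± 0.129 TPM. In ENR, Adam10 led at 24.4 ± 1.22 TPM, apart from Dll1 at 21.7 ± 1.63. Dll1 overlapped with Ncstn at 21.6 ± 1.37, and Ncstn with Adam17 at 20.4 ± 1.45 TPM. Rbpj at 10.9 ± 0.588, Jag1 at 5.08 ± 0.645 and Notch2 at 3.85 ± 0.249 TPM were the 3 lowest. Notch2 was therefore the least abundant member in every culture, and Ncstn moved from the third to the first place between CV and EN.

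The scale of the comparison shifted all transcripts together. From CV to EN the median log2 change of all transcripts was -0.08 with TMM, -0.01 with DESeq2, -0.50 without TMM, -0.49 with spike-in scaling, -0.34 in TPM and 0.62 in mRNA copies per cell. Measured from the median of each scale, the members held their places. The edgeR and DESeq2 fits differ mainly in library scaling, which shifts all transcripts by nearly the same amount. Their distances must therefore stay alike, and no fit is a separate check. The TPM and mRNA copy fits added 1 before the log, which shrinks changes of low values. Notch2 lay 1.59 to 2.87 below the median (differences of -2.87 to -1.59), with -1.59 in TPM and -1.84 in mRNA copies. Adam17 lay between -0.67 and -0.61. Adam10 lay between -0.18 and -0.07 and Rbpj between -0.04 and -0.03, close to the bulk of transcripts. Above the median lay Jag1 by 0.33 to 0.42, Dll1 by 0.70 to 0.82 and Ncstn by 1.02 to 1.22. From ENR to EN the same ranges were -2.80 to -1.56 for Notch2, -0.51 to -0.39 for Rbpj, -0.27 to -0.14 for Dll1, -0.24 to -0.12 for Adam17, 0.54 to 0.64 for Jag1 and 0.56 to 0.79 for Ncstn. Adam10 crossed the median, between -0.09 and 0.06.

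**Figure D3:**
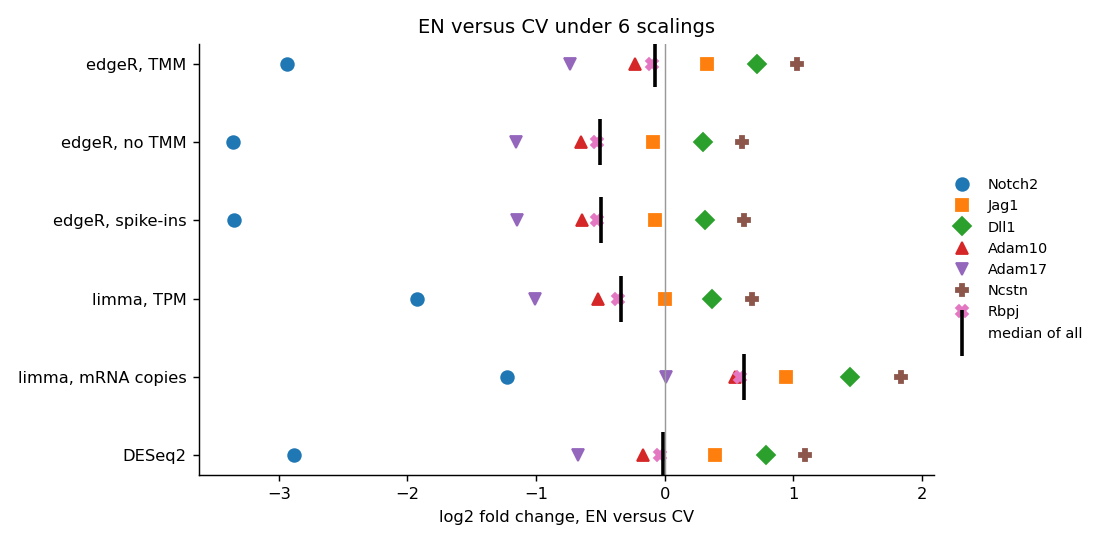
Log2 fold change from CV to EN (x axis) of the 7 transcripts under 6 scalings (rows), with the median of all transcripts as a black bar. The bar moves from -0.50 to 0.62 and the members move with it, so that Adam10, Adam17, Rbpj and Jag1 change sign under some scalings and Notch2, Dll1 and Ncstn under none.

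A wider list of 92 Notch pathway genes gave the context, 57 of them with a row and 58 rows in all, the 7 members included. From CV to EN, 46 of 58 rows changed, 27 upward and 19 downward, which is 79.3% against the 76.4% of all transcripts. The median log2 change of the list was 0.20. The 12 other rows did not pass. Between ENR and EN, 47 rows changed, 24 upward and 23 downward, beside 72.7% of all transcripts. Between ENR and CV 37 changed, 9 higher and 28 lower in CV, beside 60.0% of all transcripts. The split of the list between directions depended on the scale, with 18 rows higher and 22 lower in EN than in CV under spike-in scaling and 33 higher and 7 lower in mRNA copies. It was 5 higher and 25 lower from ENR to EN under spike-in scaling and 38 and 6 in mRNA copies. Between ENR and CV, 16 rows were left with spike-in scaling, 1 higher and 15 lower in CV, and 5 in mRNA copies.

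Of the gamma-secretase genes, Psenen, the enhancer subunit, rose by 1.23 on the log2 scale between CV and EN, beside Ncstn at 1.02. Psen2 (0.24) and Aph1a (0.06) did not pass. Without TMM the value of Aph1a turned to -0.36 and passed (adjusted p = 2.3e-06, edgeR), and that of Psen2 turned to -0.18. With spike-in scaling Psenen still passed (0.81, adjusted p = 1.16e-04, edgeR).

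All 6 genes for ligand ubiquitination and endocytosis changed, in both directions, where 76.4% of all transcripts changed. Neurl3, of the Neuralized family, rose 3.47-fold, with 57.7 ± 5.64 CPM in CV, 94.9 ± 5.10 in ENR and 200 ± 11.9 in EN. Neurl1b (1.49) and Epn1 (0.75) also rose on the log2 scale. Mib1 and Mib2, the Mind bomb ligases that make Delta ligands active, fell with log2 changes of -0.60 and -0.48, and the endocytic adaptor Epn2 with -0.74. In mRNA copies the sign of Mib1 (0.17) and Mib2 (0.26) turned.

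Receptor modifiers and turnover genes changed in both directions. Furin, which cuts the receptor during maturation, rose by 1.78 on the log2 scale and Rfng, a Fringe glycosyltransferase, by 0.74, while Poglut1, which adds glucose to the receptor, had a log2 change of -1.16 and Pofut1 (0.12) did not pass. Of 11 turnover genes, 7 rose and 2 fell, where 35.2% of all transcripts rose and 41.2% fell. Without TMM and with spike-in scaling the split was 4 higher and 3 lower. For the 4 receptor modifiers, of which 2 rose and 1 fell, it was 1 higher and 2 lower without TMM. Dtx3l, of the Deltex family, rose 3.86-fold, from 25.2 ± 2.07 CPM in CV through 52.0 ± 3.32 in ENR to 97.1 ± 2.44 in EN. Numb, an inhibitor of Notch, rose by 1.61 on the log2 scale, and the 2 that fell were the ligases Nedd4 (-1.19) and Dtx4 (-0.74).

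In the nucleus, 4 of 5 complex and co-activator genes changed, close to the 76.4% of all transcripts. The acetyltransferases Crebbp and Ep300 rose by 1.74 and 0.93 on the log2 scale, and Kat2a (-1.73) and Snw1 (-0.22) fell, where Rbpj did not pass. Snw1 was at 0.60 in mRNA copies. Of 16 rows for Rbpj co-repressors, 7 rose and 5 fell, against the same 35.2% and 41.2%. This split was 5 higher and 9 lower without TMM, 5 and 6 with spike-in scaling, 6 and 9 in TPM, and 8 and 2 in mRNA copies. Among them the deacetylase genes Hdac1 (-1.46), Hdac2 (-1.77) and Hdac3 (-0.75) fell, as did L3mbtl3 (-0.78) and Kdm1a (-0.37), and Cir1 (1.57), Tle4 (1.24), Spen (1.06) and both Ncor1 transcripts (1.18 and 1.30) rose. Hdac3 and Kdm1a turned to 0.03 and 0.42 in mRNA copies, and Kdm5a (0.15) turned to -0.27 without TMM.

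The largest changes of the wider list lay at its downstream end. Both target genes with a row fell, where 41.2% of all transcripts fell. Olfm4, a stem cell gene that Notch activates, measured 7.14, 8.94, 7.16 and 20.5 CPM in CV, and 0.804, 0.428, 0.714 and 0.432 CPM in EN (log2 -4.16 ± 0.56, adjusted p = 4.70e-06, edgeR). In ENR it stood at 1229 ± 61.7 CPM, far above both. Ccnd1, the G1 cyclin, fell 17.3-fold from 128 ± 2.15 CPM in CV to 7.41 ± 0.878 in EN (adjusted p = 8.88e-17, edgeR). Of the secretory fate genes, Atoh1, the factor that commits cells to the secretory lineage, rose 3.92-fold, from 5.59 ± 0.613 CPM in CV through 15.8 ± 0.624 in ENR to 22.0 ± 1.91 in EN, and Klf4, a goblet cell factor, rose by 1.50 on the log2 scale. Sox9, a factor of stem and Paneth cells, fell 8.56-fold, from 34.7 ± 3.25 to 3.98 ± 0.851 CPM. These genes kept their directions between CV and EN under the 6 scalings. The step of Atoh1 from ENR to EN, 0.48 on the log2 scale, turned to -0.04 with spike-in scaling (adjusted p = 0.888, edgeR).

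The transcripts whose levels ran most like each member over the 12 libraries were found by Pearson r of log2(CPM + 1). They were Prdx4 and Hspe1 for Notch2 (r = 0.996 and 0.995), Arrb1 and Golga3 for Jag1 (0.913 and 0.909), and Tmtc4 and Mlst8 for Dll1 (0.980 and 0.978). They were Pxmp2 and S100a11 for Adam10 (0.923 and 0.914), Nceh1 for Adam17 (0.987), Dapp1 and Azi2 for Ncstn (0.985 and 0.984) and Amz2 and Fermt1 for Rbpj (both 0.974). The 12 points fall into 3 cultures and share their libraries, so these values describe likeness of culture means and have no test.

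Chromatin was read in 94469 regions of the mm9 genome, as normalized scores that the study rounded to whole numbers. The 9 genes and 10000 bp on either side held 47 regions, and 16 of these lay within 500 bp of an annotated start site of the gene. Notch2 (chromosome 3, 97817461 to 97954290), Jag1 (chromosome 2, 136907192 to 136942380), Rbpj (chromosome 5, 53947018 to 54048684), Ncstn (chromosome 1, 173996144 to 174012926) and Hes1 (chromosome 16, 30064470 to 30067882) had the promoter regions that changed in acetylation. The region of Ncstn also holds the start of Copa and that of Dll1 the start of A930024N18Rik, so their scores belong to both genes.

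From CV to EN, H3K27ac, a mark of active promoters and enhancers, changed at 5 of the 16 promoter regions (limma with trend on log2(score + 1), adjusted p under 0.05), 4 upward and 1 downward. Among all regions within 500 bp of a start site 19.0% changed, 15.4% upward and 3.55% downward. The downward one was Notch2 and the others were Jag1, Ncstn, Rbpj and Hes1. H3K4me3, the mark of promoters, rose at 2 of 16, Jag1 and Rbpj. Of all 17646 such regions tested 9.60% changed, 743 upward and 951 downward. ATAC changed at 2 of 16, higher at Jag1 and lower at Notch1, against 34.5%. H3K27me3, the Polycomb mark, scored between 1 and 36 at these regions and changed at 0 of 16 by limma, with 1 at an unadjusted p under 0.05, against 0.370%. From ENR to EN the counts were 2 for ATAC (19.8% of all such regions), 1 for H3K27ac (3.72%), 2 for H3K4me3 (5.72%) and 0 for H3K27me3 (0.0498%, with 1 at an unadjusted p under 0.05 by limma). Between ENR and CV they were 2 for ATAC (14.6%), 2 for H3K27ac (6.82%), 0 for H3K4me3 (0.935%, with 3 at an unadjusted p under 0.05 by limma) and 0 for H3K27me3 (1.60%, with 1). The 5 acetylation calls from CV to EN depended on the trend of the spread with the score, since without it the adjusted p ran from 0.0943 to 0.236 (limma).

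At the Notch2 promoter H3K27ac fell in EN, while no change in ATAC passed. The ATAC scores tested were not scaled between libraries, and their sums were higher in EN than in CV. H3K27ac scored 84, 38 and 65 in CV, 67, 60 and 75 in ENR, and 14, 27 and 28 in EN. The 3 EN libraries lay below all others. The log2 difference was -1.39 ± 0.37 (SE) from CV (adjusted p = 0.0178, limma) and -1.56 ± 0.37 from ENR (adjusted p = 0.0222, limma). H3K4me3 stood at 54.0 ± 10.1, 52.3 ± 2.08 and 55.3 ± 4.04 and ATAC at 58.8 ± 3.95, 59.8 ± 7.54 and 54.2 ± 5.68 in CV, ENR and EN, and neither passed. The call from CV to EN was lost without CV replicate 3 (adjusted p = 0.0838, limma), CV replicate 5 (0.0815), EN replicate 2 (0.128) or EN replicate 3 (0.0537), and that from ENR without 7 of the 9 libraries (adjusted p from 0.0618 to 0.222) and without the trend (0.198).

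Jag1 had 2 promoter regions, of which the one over the start site responded. Its H3K27ac scored 42, 47 and 60 in CV, 138, 161 and 141 in ENR, and 102, 170 and 134 in EN, so that CV was the low culture. The difference was 1.41 ± 0.25 from CV to EN (adjusted p = 3.73e-04, limma) and -1.56 ± 0.25 for CV against ENR (adjusted p = 5.98e-04, limma), and both held when any 1 library was left out. Without the trend neither passed (adjusted p = 0.0975 and 0.185, limma). H3K4me3 scored 61, 59 and 60 in CV, 60, 69 and 60 in ENR, and 83, 93 and 96 in EN. Here EN was the high culture, by 0.58 ± 0.10 over CV (adjusted p = 0.0135, limma) and 0.52 ± 0.10 over ENR (adjusted p = 0.0232, limma). The first call was lost without EN replicate 2 (adjusted p = 0.0951, limma), and the second without ENR replicate 1 or 4 or EN replicate 2 or 4 (adjusted p from 0.0684 to 0.0822, limma). After quantile normalization neither passed (adjusted p = 0.136 and 0.254, limma). ATAC scored 324, 241, 199 and 232 in CV, 326, 302, 374 and 305 in ENR, and 294, 350, 363 and 376 in EN, with CV replicate 1 among the others. It rose by 0.49 ± 0.12 from CV to EN (adjusted p = 0.00410, limma), but by 0.12 after quantile normalization (adjusted p = 0.380, limma). It was -0.41 ± 0.12 for CV against ENR (adjusted p = 0.0285, limma), a call lost without CV replicate 2, 3 or 4 or ENR replicate 1 or 3. In the second region, just inside the gene, ATAC was lower than in ENR by 0.53 ± 0.13 in CV (log2 -0.53, adjusted p = 0.0109, limma) and by 0.39 ± 0.13 in EN (log2 -0.39, adjusted p = 0.0411, limma). The latter was lost without any of 6 libraries, among them EN replicate 2 (adjusted p = 0.122, limma).

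The Ncstn promoter gained acetylation in the order of its RNA. H3K27ac scored 78, 79 and 65 in CV, 142, 107 and 126 in ENR, and 172, 193 and 220 in EN. The cultures did not overlap. The log2 difference from CV to EN was 1.38 ± 0.22 (adjusted p = 9.1e-05, limma), kept when any 1 library was left out, and it was 0.64 from ENR to EN (adjusted p = 0.157, limma) and -0.74 for CV against ENR (adjusted p = 0.0782, limma). H3K4me3 (89.7 ± 18.8, 87.7 ± 12.1 and 114 ± 10.7) and ATAC (62.0 ± 5.83, 69.5 ± 11.0 and 60.5 ± 8.54) passed in no comparison.

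At Rbpj the region with the strongest H3K4me3 lay over the internal coding starts. Its H3K27ac scored 103, 80 and 72 in CV, 147, 217 and 165 in ENR, and 161, 149 and 174 in EN, with CV below every other library. The rise from CV to EN was 0.93 ± 0.22 (adjusted p = 0.00654, limma) and CV against ENR gave -1.04 ± 0.22 (adjusted p = 0.00740, limma). H3K4me3 rose from 88.0 ± 10.4 in CV to 149 ± 18.6 in EN, by 0.75 ± 0.12 (adjusted p = 0.0121, limma). The acetylation call from CV to EN was lost without EN replicate 4 (adjusted p = 0.0661, limma) and the H3K4me3 call without EN replicate 2 (adjusted p = 0.0713, limma). The acetylation call against ENR was lost without CV replicate 5, ENR replicate 2 or ENR replicate 4 (adjusted p from 0.0578 to 0.0916, limma), and without the trend (0.278). After quantile normalization the values from CV to EN were 0.38 for acetylation (adjusted p = 0.426, limma) and 0.37 for H3K4me3 (adjusted p = 0.174, limma), and CV against ENR was -0.66 in acetylation (adjusted p = 0.247, limma).

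Hes1, the classic Notch target, had 5 promoter regions. In the one with the most H3K4me3, H3K27ac scored 41, 36 and 43 in CV, 46, 100 and 84 in ENR, and 67, 86 and 115 in EN. EN lay above CV in all libraries, with a log2 difference of 1.11 ± 0.32 (adjusted p = 0.0308, limma), but the call was lost when any of 6 of the 9 libraries was left out (CV replicate 4 or 5, ENR replicate 4, EN replicate 2, 3 or 4, adjusted p from 0.0513 to 0.216, limma). H3K4me3 in the next region, over the coding start, scored 10, 13 and 9 in ENR and 19, 29 and 40 in EN, a difference of 1.33 ± 0.29 (adjusted p = 0.0396, limma) that was lost without any of 5 libraries (ENR replicate 1, 2 or 4, EN replicate 2 or 4, adjusted p from 0.0752 to 0.129, limma). A region about 9 kb before the coding start (mm9, chromosome 16, 30055531 to 30056371) changed more firmly. Its H3K27ac scored 25, 26 and 20 in CV, 67, 54 and 40 in ENR, and 67, 70 and 94 in EN, a log2 difference of 1.65 ± 0.35 from CV to EN (adjusted p = 0.00212, limma). It was the only 1 of the 31 regions outside promoters with changed acetylation between CV and EN, where 7.03% of all regions changed, and the call held when any 1 library was left out. Without a trend it did not pass (adjusted p = 0.0676, limma), nor with the replicate number as a block (adjusted p = 0.182, limma).

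Notch1 had its strongest mark over an internal start site. ATAC there scored 46, 51, 51 and 51 in CV, 49, 52, 41 and 59 in ENR, and 33, 39, 27 and 37 in EN, and all EN libraries lay below the rest. The log2 difference was -0.55 ± 0.15 from CV (adjusted p = 0.00771, limma) and -0.55 ± 0.15 from ENR (adjusted p = 0.0114, limma), both kept when any 1 library was left out. H3K27ac there stood at 87.7 ± 17.0, 106 ± 15.5 and 61.7 ± 10.7 in CV, ENR and EN (adjusted p = 0.313 from CV to EN, limma). The lead regions of Dll1, Adam10 and Adam17 passed for no mark in any comparison, and the nearest was the H3K27ac of Dll1, higher in EN than in ENR by 0.80 (adjusted p = 0.0619, limma).

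**Figure D4:**
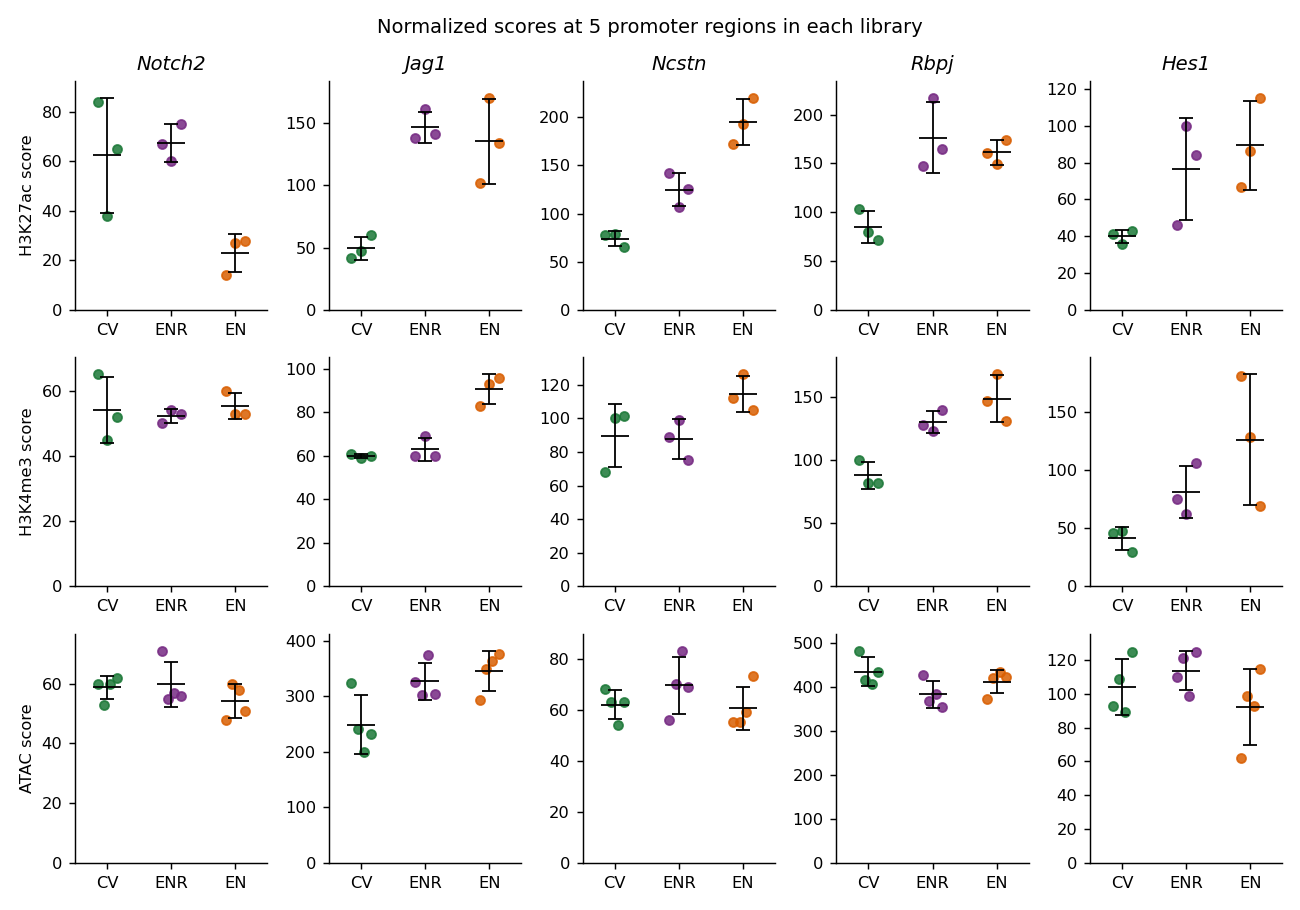
Normalized score (y axes, from 0) of H3K27ac, H3K4me3 and ATAC (rows) at 1 promoter region of Notch2, Jag1, Ncstn, Rbpj and Hes1 (columns), with points for libraries, a bar for the mean and the SD of 3 (histone marks) or 4 (ATAC) libraries. In acetylation, EN is the low culture at Notch2 (14 to 28), and CV is the low culture at Jag1 (42 to 60) and Ncstn (65 to 79).

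To show what lies before these starts, the 250 bases upstream of the start site in the changed region were read from mm9 for Notch2 (chr3:97817211-97817460, plus strand), Jag1 (chr2:136942381-136942630, minus strand) and Rbpj (chr5:53981204-53981453, plus strand), each 5′ to 3′ on the strand of the gene. Capitals mark TGGGAA, the core that Rbpj binds, or its reverse complement. The search also covered ATCAAAG for TCF/LEF factors and CAAAGNCCA for Hnf4 factors, on both strands, the latter able to overlap with TCF/LEF at CAAAG.
Notch2: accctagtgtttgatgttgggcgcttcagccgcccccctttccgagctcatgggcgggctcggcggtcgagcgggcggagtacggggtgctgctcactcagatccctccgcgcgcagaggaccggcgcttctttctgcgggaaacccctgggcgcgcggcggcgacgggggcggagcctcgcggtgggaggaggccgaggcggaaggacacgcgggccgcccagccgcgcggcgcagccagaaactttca
Jag1: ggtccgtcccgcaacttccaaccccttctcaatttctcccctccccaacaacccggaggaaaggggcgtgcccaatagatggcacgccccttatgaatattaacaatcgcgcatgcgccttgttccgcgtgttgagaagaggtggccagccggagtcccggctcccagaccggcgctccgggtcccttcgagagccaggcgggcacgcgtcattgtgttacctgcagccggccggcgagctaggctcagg
Rbpj: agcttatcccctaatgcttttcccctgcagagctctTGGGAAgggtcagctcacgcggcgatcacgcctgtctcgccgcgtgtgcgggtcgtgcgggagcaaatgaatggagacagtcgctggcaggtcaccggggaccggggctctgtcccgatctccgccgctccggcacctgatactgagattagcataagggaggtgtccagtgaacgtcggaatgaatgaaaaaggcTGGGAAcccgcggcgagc
The Rbpj stretch held TGGGAA at positions 37 and 233, counted from its 5′ end, and the other two held none of the 3 motifs. Of 45975 coding start sites, 20.4% had TGGGAA, 2.69% ATCAAAG and 1.49% CAAAGNCCA in the same 250 bases. GC content was 72.0% for Notch2, 63.2% for Jag1 and 61.2% for Rbpj.

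Outside the promoters, 11 of 31 regions changed in ATAC from CV to EN, 3 upward and 8 downward. Of all 94166 regions tested 35.2% changed, 18480 upward and 14675 downward. From ENR to EN 10 changed, 1 upward and 9 downward, where 24.0% of all regions changed, 10880 upward and 11736 downward. Notch2 held 4 of the 8 that fell from CV, all in introns. The region 17.6 kb into the gene (mm9, chromosome 3, 97834850 to 97835233) scored 24, 24, 14 and 22 in CV, 17, 18, 17 and 24 in ENR, and 11, 7, 13 and 8 in EN. All EN libraries were lower than the rest, by -1.04 ± 0.23 from CV (adjusted p = 0.00171, limma) and -0.92 ± 0.23 from ENR (adjusted p = 0.00712, limma). The region at 30.5 kb (97847803 to 97848125) fell likewise, from 20.5 ± 4.65 in CV and 17.0 ± 2.94 in ENR to 9.25 ± 3.50 in EN (log2 -1.11 from CV, adjusted p = 0.00224, limma). The region at 31.6 kb (97848938 to 97849193) scored 10, 9, 13 and 12 in CV and 11, 3, 2 and 2 in EN, with EN replicate 1 at the level of CV (log2 -1.38, adjusted p = 0.00492, limma). From ENR to EN the region at 30.5 kb no longer passed without ENR replicate 1, ENR replicate 3 or EN replicate 1 (adjusted p from 0.0512 to 0.0599, limma).

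The fourth Notch2 region, 85.3 kb into the gene (97902655 to 97902894), scored highest in ENR. It scored 2, 2, 2 and 3 in CV, 14, 16, 11 and 15 in ENR, and 1, 0, 1 and 1 in EN. The difference was -3.14 ± 0.31 from ENR to EN (adjusted p = 1.62e-06, limma) and -2.21 ± 0.31 for CV against ENR (adjusted p = 1.04e-04, limma), and both kept their calls when any 1 library was left out. That from CV to EN, -0.94 (adjusted p = 0.0239, limma), rested on scores of 3 or less and was lost without CV replicate 4 (adjusted p = 0.0616, limma), without EN replicate 2 (0.0630) or with log2(score + 5) (0.0847). Its H3K27ac scored between 1 and 10 in all libraries, and its H3K4me3 at 0 to 2, so that the H3K4me3 call there (1.19 for EN against both) rested on near-empty scores. The last region of the gene, at 99.3 kb, scored 181, 35, 2 and 1 in EN and 47, 5, 3 and 2 in CV, a spread within each culture that no comparison passed. In Jag1 an intronic region 2.3 kb into the gene (mm9, chromosome 2, 136939988 to 136940213) was less open in EN. It scored 39, 31, 22 and 21 in CV, 38, 33, 37 and 28 in ENR, and 4, 8, 15 and 15 in EN. The differences were -1.45 ± 0.31 from CV (adjusted p = 0.00107, limma) and -1.75 ± 0.31 from ENR (adjusted p = 4.15e-04, limma), opposite in sign to the ATAC of the Jag1 start from CV to EN.

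**Figure D5:**
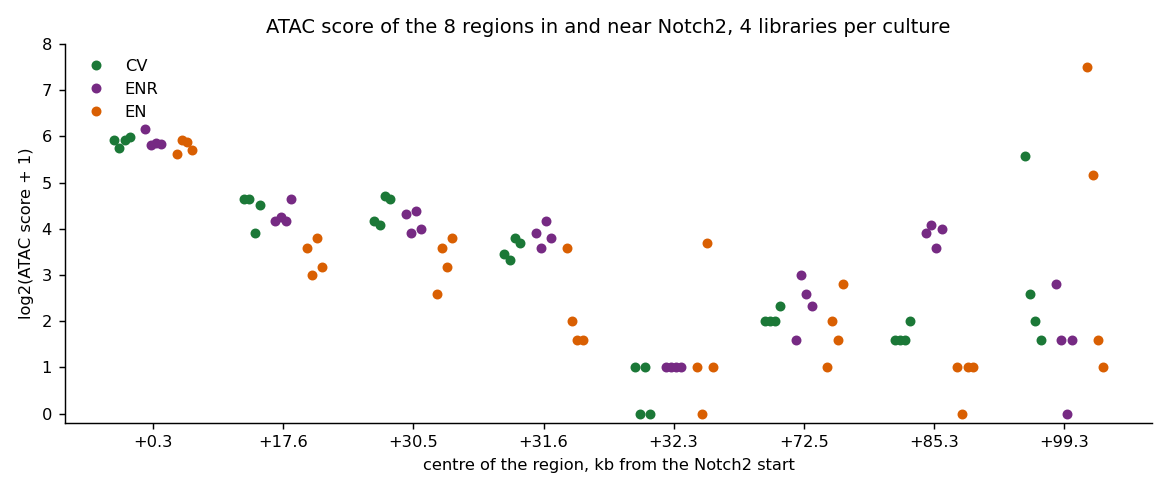
ATAC score on a log2(score + 1) scale (y axis) of the 8 regions in and near Notch2, placed by the distance of their centres from the start in kb (x axis, not to scale between regions), with 4 libraries per culture as points. EN lies low at 17.6, 30.5 and 31.6 kb, ENR stands alone at 85.3 kb with scores of 11 to 16, and the start itself differs little.

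The intronic region of Notch2 and that of Jag1 with the largest ATAC difference from ENR to EN are given in mm9, 5′ to 3′ on the strand of the gene, with matches to the same motifs in capitals (chr3:97902655-97902894, plus strand, and chr2:136939988-136940213, minus strand).
Notch2 intron: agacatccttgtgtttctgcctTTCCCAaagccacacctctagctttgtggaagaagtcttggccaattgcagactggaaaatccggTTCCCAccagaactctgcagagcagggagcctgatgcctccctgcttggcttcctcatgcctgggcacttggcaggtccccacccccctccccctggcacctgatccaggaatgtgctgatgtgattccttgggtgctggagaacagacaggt
Jag1 intron: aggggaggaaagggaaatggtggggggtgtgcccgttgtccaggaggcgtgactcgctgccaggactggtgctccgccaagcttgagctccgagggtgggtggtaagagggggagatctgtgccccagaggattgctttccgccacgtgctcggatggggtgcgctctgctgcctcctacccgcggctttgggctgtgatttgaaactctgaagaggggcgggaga
The Notch2 intron held the reverse complement of TGGGAA at positions 23 and 88, and the Jag1 intron held none of the 3 motifs. In windows of the same length centred on 94335 regions, TGGGAA was found in 20.6% (240 bases) and 19.4% (226 bases), ATCAAAG in 4.61% and 4.39%, and CAAAGNCCA in 3.76% and 3.61%.

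Hnf4g, a nuclear receptor of the enterocyte, was measured once per culture, and the libraries differed widely in depth, with 84340 reads in regions for CV, 352600 for ENR and 1816497 for EN. There is no replicate check, and the 95% intervals (exact Poisson) cover counting error only. At the Jag1 start region EN had 180 reads, or 99.1 reads per 1000000 (RPM, 85.1 to 115), against 9 reads in ENR, or 25.5 RPM (11.7 to 48.5), and 0 reads in CV, for which the interval reaches 43.7 RPM. At Dll1 the values were 92.5 RPM in EN (79.0 to 108) and 51.0 in ENR (30.3 to 80.7), and at Notch2 39.6 (31.0 to 49.9) and 22.7 (9.80 to 44.7). Rbpj and Hes1 had about equal values in both, with 103 (88.7 to 119) and 102 (71.5 to 141) RPM at Rbpj and 127 (111 to 145) and 116 (83.4 to 158) at Hes1. Ncstn had 22.6 RPM in EN (16.2 to 30.6) and 5.67 in ENR (0.687 to 20.5). The median region had 2.20 RPM in EN and 2.84 in ENR. The CV library gave at most 5 reads at any lead region. Its interval lay below that of EN at the Jag1 start, at Dll1 and at Adam10 (64.4 RPM in EN, 53.3 to 77.2). It overlapped with that of EN at the lead regions of Notch1, Notch2, Jag1, Adam17, Ncstn, Rbpj and Hes1, where a difference was not detectable at this depth. The lead region of Jag1, just inside the gene, had 46.2 RPM in EN (36.9 to 57.3) and 34.0 in ENR (17.6 to 59.4).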

How the data were processed

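RNA of organoids was quantified by the authors with kallisto (version 0.43.0 per the labels) on RefSeq transcripts. To match RNA with protein, the paper limited its transcript set to those with a protein measurement. All transcripts here means the 9481 with a row, which may be that limited set and not the whole transcriptome. The deposited table holds expected counts, TPM and mRNA copies per cell (set from spike-in transcripts) of each library, and the other deposited files hold regions called by the authors with MACS2 (version 2.0) on reads aligned to mm9 with BWA, as a normalized score rounded to whole numbers for ATAC and 3 histone marks (H3K27me3 over regions extended to 1000 bp) and as raw Hnf4g read counts. Depth was 5630977 to 8859757 expected counts per RNA library, and the summed score of a chromatin library ran from 817265 to 2109261. Summed scores were higher in EN than in CV for H3K27ac (1622103 to 1760511 against 1345873 to 1406651), H3K4me3 (984840 to 1100967 against 817265 to 940440) and ATAC (1993594 to 2109261 against 1752385 to 1840402). Those of H3K27me3 overlapped. Apart from the alternative with quantile normalization, scores were not scaled further between libraries.

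Expected counts were rounded and tested in edgeR 4.0.16 (TMM, quasi-likelihood test, 1 fit of 12 libraries, culture as the only term) for the 9288 transcripts counted in 4 libraries or more, leaving out 193. Scores were tested with limma 3.58.1 (with a trend of the spread) on log2(score + 1) for regions above 0 in at least 3 libraries. P-values were adjusted by Benjamini-Hochberg over all transcripts or regions and called under 0.01 for RNA and 0.05 for chromatin. Fold changes of scores therefore understate those of low regions. Start sites came from GENCODE vM1 on NCBIM37 (mm9). The region with the highest mean H3K4me3 near a start was taken as the lead region of a gene. Scripts were tested on simulated data.

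The genes named were all members, the 3 largest rises and falls from CV to EN among other listed genes with groups apart, the genes behind counts of 5 or fewer, the 2 most similar transcripts of each member, and Lgr5 and Alpi. Some results of single genes are not reported here. Hdac, Tle4, Cir1, Spen, Ncor1 and Numb were named after their values were seen. Members, lists and tests were chosen with earlier results of these data known. Alternatives were DESeq2 1.42.0, no TMM, spike-in scaling, limma on log2(TPM + 1), log2(TPM + 5) or log2(copies + 1), other filters and thresholds, the replicate number as a block, leaving out each library, and, for scores, log2(score + 5), no trend, quantile normalization and a distance of 1000 bp. Libraries of a Hnf4g knockout comparison and further histone libraries were not analysed here.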

Additional observations from a re-analysis of the deposited data

Results flagged for a closer look

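In each culture with 4 values, the library farthest from its neighbours was set against the range of the group (Dixon's ratio above its 95% critical value), for 21 groups of CPM values and 63 groups of ATAC scores. This marked 9 groups of 84, where chance marks about 1 in 20, and several rest on whole-number scores that differ by a few units. In RNA, ENR replicate 2 stood apart for Adam10, at 85.2 CPM against 76.8 to 78.2 in the other ENR libraries. In ATAC, CV replicate 1 was low at the Notch1 start, at 46 against 51 in the other 3. ENR replicate 1 was high at the Notch2 start, at 71 against 55 to 57, and ENR replicate 4 at the Notch2 intron 17.6 kb from the start, at 24 against 17 to 18. At the Notch2 intron 31.6 kb from the start EN replicate 1 scored 11 against 2 to 3. At the intron 85.3 kb from the start of Notch2, CV replicate 4 scored 3 against 2, and EN replicate 2 scored 0 against 1. CV replicate 3 scored 3 against 2 at the smaller Dll1 promoter region, and ENR replicate 4 scored 4 against 2 in the other 3 at a Hes1 promoter region.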

How the results depend on the processing

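Of the counts of changed members, those from CV to EN and from ENR to EN stayed within 1.5 times under all alternatives run, though the split between directions did not. That between ENR and CV, 4, became 1 with spike-in scaling and 0 in mRNA copies (limma). Leaving out 1 library gave 5 to 6, 5 to 6 and 4 to 5 changed members for EN against CV, EN against ENR and CV against ENR. Signs turned in mRNA copies from CV to EN for Adam10 (0.55), Adam17 (0.00788) and Rbpj (0.58), and from ENR to EN for Dll1 (0.74), Adam10 (0.94), Adam17 (0.77) and Rbpj (0.49). Jag1 from CV to EN turned to -0.094 without TMM, -0.075 with spike-in scaling and -4.2e-04 in TPM. For promoter regions from CV to EN, ATAC calls went from 2 to 1 without a trend and 0 at the study's stricter thresholds. H3K27ac calls went from 5 to 0 without a trend and to 2 at those thresholds, and lay between 3 and 5 with 1 library left out. H3K4me3 calls went from 2 to 1 without a trend, 0 at those thresholds and 4 with a mean score of at least 10, and lay between 0 and 3 with 1 library left out (0 without EN replicate 2). With 2 libraries left in a culture, fewer calls follow in part from fewer samples, and otherwise the cause was not tested. With the replicate number as a block, H3K27ac and H3K4me3 promoter calls from CV to EN became 0. The Jag1, Rbpj and Notch2 acetylation calls against ENR were lost too (adjusted p from 0.368 to 0.376, limma). So were the H3K4me3 calls from ENR to EN at Jag1 (adjusted p = 0.0525, limma) and Hes1 (0.0927). The acetylation call from CV to EN at the Hes1 region outside its promoters was also lost (adjusted p = 0.182, limma). The counts of changed members and of ATAC promoter calls from CV to EN stayed in their 1.5-fold range. The labels do not say whether the numbers pair the libraries. In RNA, deviations of same-numbered libraries correlated at 0.013 on average (lowest -0.059), against -0.004 for differently numbered ones. In ATAC they correlated at 0.17 (lowest 0.07), against -0.056 (highest 0.208), so ATAC libraries of the same number were more alike. In no data set did every library correlate best with its own number, which does not exclude pairing. Adding all labelled libraries was not run, as the table holds those already used. Low EN counts of Notch2 and whole-number scores near 0 limit the precision of the smallest values.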
